A study of Mus musculus with 18 samples.

Results

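Leukocytes that had left the inflamed ear skin and were captured in the draining lymph node were compared with leukocytes labeled as having left the ear for the same node at steady state. The comparison rested on 6 of the 18 libraries of the series, 3 of inflamed cells (skin migrated) and 3 of steady-state cells (skin node steady state), and was chosen by the group labels alone. Of the 49585 genes listed, 45108 lay on autosomes, and the 16532 of these that passed a filter on low counts in the 12 lymph node libraries were tested. All mice carried Kaede, a protein that turns irreversibly from green to red under violet light, so that red cells in a node are taken to have been in the illuminated tissue. For the joint, the paper reports a slight rise in red cells of the draining node right after illumination. The inflamed libraries were made from pools of sorted CD45+ Kaede red cells, and CD45 is carried by leukocytes in general. For the steady-state libraries the labels give CD45+ cells and no Kaede color, so that a sort for red cells is not stated for them.

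The inflamed group came from mice given 3000000 OVA-specific Th1 cells of the OT-II strain, immunized the next day with 100 µg ovalbumin in complete Freund's adjuvant and injected 10 days later with 100 µg heat-aggregated ovalbumin in the ear. The ear was photoconverted 3 days after that injection and the node was taken the next day. The methods give an age of 6 to 10 weeks for the study's mice. The transferred Th1 cells did not carry Kaede, so the red gate was meant to leave them out, and the paper gives no purity of the sort. The labels describe the other group as cells that migrated from the ear to the node at steady state, and title its samples Naive. Beyond that word, no source used here says whether those mice received T cells, immunization or a sham injection. Mice were pooled for each library, so the spread between the 3 libraries of a group is a spread between pools.

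Cells leave skin through lymphatic vessels. Dendritic cells that mature in the tissue switch on CCR7, a receptor for chemokines made by lymphatic vessels and node stroma, and carry antigen to the T cell areas of the node. T cells can take the same route, whereas naive T and B cells mostly enter nodes from the blood and leave by efferent lymph, guided by the sphingosine-1-phosphate receptor S1P1. In a resting node, naive lymphocytes are the most common leukocytes.

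Several features of the libraries moved with the groups. Depth was 19239531 to 22378238 reads assigned to genes in the skin migrated libraries and 28577566 to 40055171 at steady state. Reads outside any gene made up 0.114% to 0.135% of the counted reads in the first and 0.227% to 0.441% in the second, and mitochondrial reads 1.56% to 2.14% and 2.49% to 3.59%. The labels name no sequencing batch, and a batch and the condition cannot be told apart. Pearson's r of log2 CPM between replicate libraries, across genes, lay between 0.987 and 0.990 in skin migrated and between 0.995 and 0.997 at steady state, and no pair agreed within counting noise.

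The sex of the mice also differed. *Xist*, the RNA that silences one X chromosome in female cells, stood at 574, 503 and 573 CPM in the 3 skin migrated libraries and at 0.501, 0.296 and 0.56 CPM at steady state. The Y-linked gene *Ddx3y* had no read in any skin migrated library and reached 88.8, 108 and 125 CPM at steady state. By these reads all inflamed pools were female and all steady-state pools male, so sex and inflammation cannot be told apart within the skin-draining node. The paper's legends describe the inflamed pools as drawn from matched male and female mice, which these reads do not show. The joint-draining groups each held 1 library with male reads among 3, and a fit of all 12 node libraries with sex as a term, which takes the sex effect from those joint libraries and assumes it to be the same in both nodes, called 5087 autosomal genes against 6043 without the term, 4819 of them in both with the same direction.

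Salivary gland RNA was present in 1 group only. *Bpifa2*, which encodes a protein secreted by the parotid gland, had 352162, 14813 and 137267 reads in skin migrated replicates 1, 2 and 3 and none in any steady-state library. Together 14 salivary genes, chosen after their values had been seen, took up 2.80%, 0.136% and 1.02% of the reads of those replicates, and 12 of the 14 had no read at steady state. *Amy1*, salivary amylase, stood at 4457, 246 and 1561 CPM against 0.597, 1.11 and 0.593 CPM. The cells had been sorted for CD45, which gland epithelium does not carry, and the RNA was there in all 3 inflamed pools, most in replicate 1 and least in replicate 2. With replicate 2 as the only skin migrated library, 5427 genes were called. Values below are given in the order of replicates 1, 2 and 3, so that a level that followed this RNA can be read off. Genes such as *Ifng*, *Il17a* and *Ccr2* also had this order, and the share of all genes that had it was not counted. The order alone therefore cannot tell gland RNA from other sources.

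Between the groups, 6043 of the 16532 autosomal genes (36.6%) passed an adjusted p under 0.05 with a difference of more than 2-fold, 3571 of them higher in skin migrated cells (21.6%) and 2472 lower (15.0%). Levels are given as CPM, the reads of a gene relative to the library total scaled by its TMM factor, fold changes are log2 differences ± SE with n = 3 a group, and adjusted p-values are from edgeR's quasi-likelihood test across all genes. The median difference over all autosomal genes was 0.01, with quartiles of -0.66 and 0.84. More than 16-fold differences numbered 869 upward and 193 downward. With library totals in place of TMM factors the median moved by -0.17, and the share of higher genes among those called went from 59.1% to 51.0%.

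**Figure D1:**
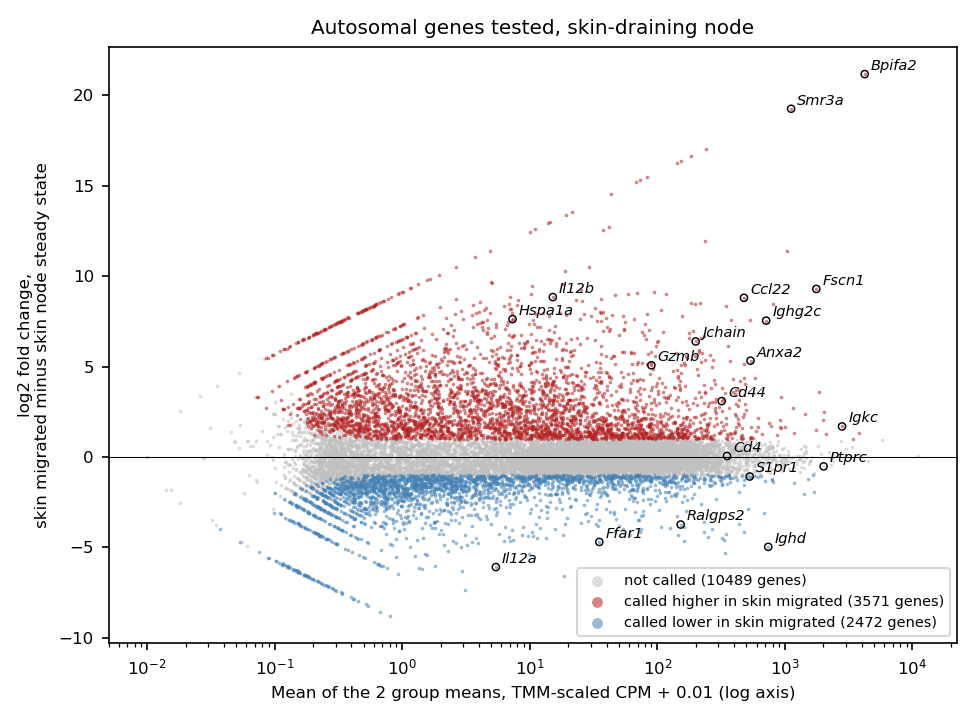
Log2 fold change (vertical axis, skin migrated minus skin node steady state) against mean level (horizontal log axis, mean of the 2 group means in TMM-scaled CPM + 0.01) for the 16532 autosomal genes tested, with 3571 genes called higher in red, 2472 called lower in blue and the rest grey. Bpifa2 and Smr3a, 2 salivary genes, have the highest fitted values, and the diagonal lines of points are genes with no read in 1 group, whose fitted value depends on the prior count.

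The sets of leading genes below held only genes whose groups did not overlap. The 12 with the smallest adjusted p on the higher side included *S100a4*, *Anxa2*, *Gzmb* and *Cd44*. *S100a4*, a calcium-binding protein of motile cells, rose from 10.5, 11.8 and 11.8 CPM at steady state to 424, 464 and 503 CPM in the inflamed pools, a log2 fold change of 5.35 ± 0.14 (adjusted p = 6.32e-11). *Anxa2*, annexin A2, stood at 26.9, 26 and 25.5 CPM and then at 887, 1038 and 1223 CPM (5.33 ± 0.18, adjusted p = 2.96e-10). Close replicates and distant groups, as seen for both genes, follow from the way the genes were chosen. *Gzmb*, the cytotoxic protease granzyme B, went from 5.85, 5.67 and 3.92 to 197, 165 and 161 CPM (5.07 ± 0.16, adjusted p = 2.4e-10). *Cd44*, the hyaluronan receptor that marks antigen-experienced T cells, went from 62.6, 68.3 and 70.6 to 564, 544 and 609 CPM (3.09 ± 0.11, adjusted p = 3.86e-10). The other genes on that side were *Osbpl3*, *H2-M2*, *Lxn*, *Espl1* (separase), *Prdm1* (Blimp-1), *H1f0*, *Pla2g4f* and *Tmem176a*, with differences from 3.33 for *Prdm1* to 7.03 for *H2-M2*. *Tmem176a* shares exonic sequence with Tmem176b on the opposite strand, and *S100a4* with a predicted gene on its own strand.

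On the lower side the genes with the smallest adjusted p included *Ffar1*, *Bank1* and *Igfbp4*. *Ffar1*, a receptor for long-chain fatty acids, fell from 71.6, 70.5 and 60.7 CPM to 2.19, 2.24 and 3.34 CPM (-4.70 ± 0.17, adjusted p = 5.96e-10). *Bank1*, a scaffold protein of B cell receptor signaling at chr3:136053363-136326066 of GRCm38, fell from 272, 281 and 272 CPM to 15.8, 9.02 and 16 CPM (-4.34 ± 0.19, adjusted p = 1.48e-09). *Igfbp4*, which is high in naive T cells, fell from 322, 299 and 293 CPM to 19.3, 20.8 and 23.5 CPM (-3.85 ± 0.17, adjusted p = 1.47e-09). By that choice of genes, no inflamed pool reached the lowest steady-state pool for any of these. Others in this set were *Ighd*, *Fcrl1*, *Bach2*, *Ralgps2*, *Kmo*, *Pik3c2b*, *Amigo2* and *Snx30*, with differences from -4.97 for *Ighd* to -2.45 for *Snx30*. In 71.1% of all autosomal genes tested the 3 values of one group did not overlap the 3 of the other. Fewer cells of a type and less RNA per cell cannot be told apart in these bulk libraries, here and in all that follows.

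Mature dendritic cell genes were higher throughout. All 22 members tested of the 23 listed were called higher, with a median log2 fold change of 4.60. Their summed level was 13877 to 18986 CPM in the skin migrated libraries and 1368 to 1535 CPM at steady state. *Fscn1*, the actin-bundling protein fascin that mature dendritic cells use for their long processes (chr5:142960343-142973185), was at 2687, 3909.9 and 3973 CPM in the inflamed pools and at 6.28, 5.33 and 5.17 CPM at steady state (9.30 ± 0.40, adjusted p = 1.29e-09). *Ccl22*, a chemokine that mature dendritic cells make for CCR4-bearing T cells, was at 739, 960.1 and 1161 and 2.08, 2.34 and 1.94 CPM (8.80 ± 0.41, adjusted p = 1.96e-09). *Cacnb3*, a calcium channel subunit of migratory dendritic cells, was at 1274, 1827 and 1734 and 5.4, 4.56 and 3.66 CPM (8.46 ± 0.37). These defining genes of the migrated dendritic cell stood below 10 CPM in every steady-state pool, whose label describes cells that had come from the ear. *Zmynd15* had a similar contrast (314, 471 and 394 against 1.5, 1.16 and 0.527 CPM), and its exons overlap those of *Cxcl16* on the opposite strand, so that reads of the pair may not be separable.

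*Ccr7* changed much less than these. It was at 1157, 992 and 1464 CPM in the inflamed pools and at 601, 489.5 and 493 CPM at steady state (1.19 ± 0.27, adjusted p = 0.00192). Naive T cells also carry this receptor. Its call did not hold with sex as a term (0.88, adjusted p = 0.0795), nor with replicate 2 as the only skin migrated library (0.91, adjusted p = 0.0601), and the fold fell below 2 without skin migrated replicate 3 (0.98).

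Genes of dendritic cell identity divided. *Flt3*, the growth factor receptor that dendritic cells need, was at 338, 442 and 469 CPM against 8.43, 7.5 and 6.53 CPM (5.79 ± 0.30, adjusted p = 4.74e-09). *Zbtb46*, a transcription factor of classical dendritic cells, was at 73.2, 90.5 and 88.6 against 1.84, 2.07 and 1.78 CPM (5.46 ± 0.31), and *Itgax*, CD11c, at 87.1, 84.1 and 104 against 16.5, 15.2 and 14 CPM (2.59 ± 0.13). All inflamed pools lay above all steady-state pools for these 3 genes, and the groups were apart in 71.1% of all autosomal genes tested. Of the 8 members, 4 rose and 3 fell, the latter being *Kmo*, *Btla* and *Cd24a*, which B cells express too. The fourth to rise, *Dpp4*, was close to the fold limit (1.03 ± 0.16), and its fold was below 2 without TMM factors (0.85) and without skin migrated replicate 2 or 3.

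Markers of single dendritic cell subsets varied in level. *Batf3*, a transcription factor of type 1 dendritic cells that other activated cells also use, was at 60.8, 84.9 and 71.2 CPM against 0.525, 0.37 and 0.231 CPM (7.53 ± 0.34, adjusted p = 1.47e-09). *Xcr1*, the chemokine receptor that defines type 1 dendritic cells, reached only 6.56, 5.25 and 4.21 CPM against 1.81, 2.24 and 2.67 CPM (1.25 ± 0.27, adjusted p = 0.00129). *Mgl2*, a lectin of dermal type 2 dendritic cells, was at 11.3, 10.1 and 13 against 1.15, 1.31 and 0.56 CPM (3.49 ± 0.37, adjusted p = 2.35e-06). The type 1 list had 4 of 11 members higher and 1 lower, and the type 2 list 4 of 9 higher and none lower, beside 21.6% and 15.0% of all autosomal genes. Summed levels were 625 to 717 CPM against 629 to 764 CPM at steady state for type 1. For type 2 they were 483 to 622 CPM against 221 to 305 CPM. *Cd207*, langerin, which defines Langerhans cells, was near 0 in all 6 libraries (0.0508, 0.328 and 0.0968 and 0.0478, 0.0493 and 0 CPM) and was not tested. *Epcam*, found on Langerhans cells and on glandular epithelium, was at 13, 3.83 and 9.44 against 1.93, 2.27 and 2.37 CPM (2.00 ± 0.37, adjusted p = 0.000378), in the order of the salivary RNA, and with replicate 2 alone its call was lost (0.81, adjusted p = 0.0872). The part of gland RNA in it was not tested. Plasmacytoid dendritic cell genes fell in 6 of 10 cases and rose in 2 (median -1.56). The 2 that rose were *Klk1* and *Runx2*, and the part of gland RNA in them was not tested. *Siglech*, a lectin that defines these cells, stood at 2.39, 3.66 and 3.1 CPM against 20.3, 17 and 20.6 CPM (-2.66 ± 0.21, adjusted p = 1.84e-07), and *Ccr9* at 3.15, 5.3 and 5.52 against 55.9, 61 and 67.4 CPM (-3.72 ± 0.19).

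**Figure D2:**
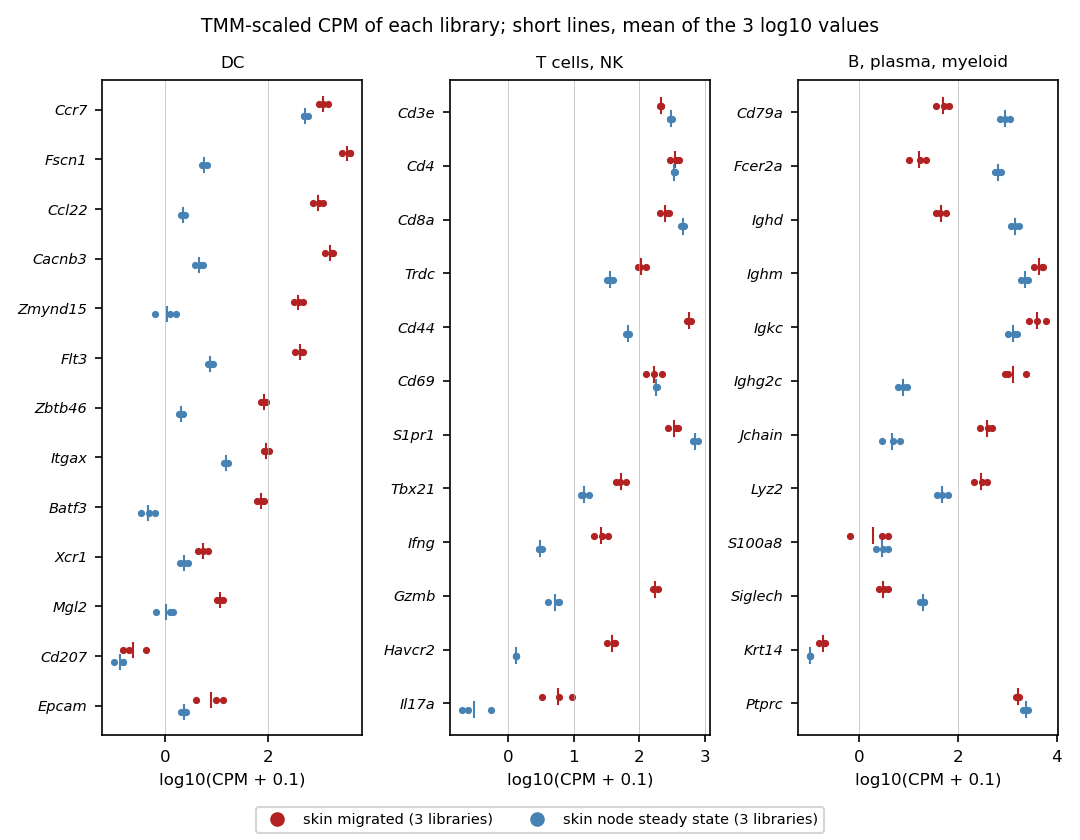
Level of each cell marker gene in each of the 6 libraries as log10(CPM + 0.1) on the horizontal axis, with red points for the 3 skin migrated libraries, blue points for the 3 steady-state libraries and a short line at the mean of the 3 log values. Fscn1, Ccl22 and Ighg2c are far to the right in red, Cd79a, Ighd and Fcer2a far to the right in blue, and Cd4, Cd69 and S100a8 overlap.

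Genes that all T cells carry mostly stayed within 2-fold. Of 20 T cell identity genes none was called higher and 2 were called lower, among them the transcription factor *Bcl11b* (-1.01 ± 0.13, and -0.96 without skin node steady state replicate 3), with a median of -0.33. *Cd3e*, a chain of the CD3 complex, was at 210.5, 214 and 212 CPM against 296, 296 and 315 CPM (-0.51 ± 0.13, adjusted p = 0.00328), a difference beyond the replicate spread but short of the fold limit. *Cd4* was at 411, 370.2 and 295 against 346, 341 and 349 CPM (0.06 ± 0.12, adjusted p = 0.694), and the groups overlapped. *Cd8a* was at 207, 267 and 280.4 against 439, 459.8 and 485 CPM (-0.87 ± 0.17, adjusted p = 0.000599). *Ptprc*, which encodes CD45 itself, was at 1679.98, 1523 and 1757 against 2041, 2396 and 2679 CPM (-0.52 ± 0.13, adjusted p = 0.00383).

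Naive T cell genes fell in 5 of 11 cases and rose in none (median -0.999). *Lef1*, a transcription factor of naive T cells, was at 81.4, 95.6 and 96.3 CPM against 266, 272 and 281 CPM (-1.58 ± 0.18, adjusted p = 3.87e-06). *S1pr1*, the receptor that draws lymphocytes out of the node, was at 358, 271 and 392 against 669, 697 and 794 CPM (-1.08 ± 0.17, adjusted p = 9.74e-05), and its fold was just under 2 without skin migrated replicate 2 (-0.98). *Klf2*, a transcription factor that drives *S1pr1*, was at 195, 236 and 265 against 559, 525 and 454 CPM (-1.14 ± 0.21, adjusted p = 0.000354), and at -0.98 with sex as a term. *Cd69*, which holds S1P1 inside the cell, did not pass the test (223, 129 and 167 against 181, 179.5 and 186 CPM, -0.08 ± 0.17, adjusted p = 0.71). Among the 13 genes of S1P signaling and node egress 4 rose and 2 fell (30.8% and 15.4%, median 0.02), beside 21.6% and 15.0% of all autosomal genes. The 2 that fell were *S1pr1* and *Klf2*, which were also in the naive T cell list. Those that rose were the receptors *S1pr2* (2.11 ± 0.14) and *S1pr5* (1.23 ± 0.36), *Sphk1*, which makes S1P (3.84 ± 0.58), and *Sgpl1*, the lyase that destroys it (1.27 ± 0.14).

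Effector genes rose together. Of the 17 Th1 and effector T cell genes 15 were called higher and none lower (median 2.04). *Ifng*, interferon gamma, was at 33.9, 20.7 and 26.7 CPM in the inflamed pools against 3.2, 2.91 and 2.87 CPM (3.18 ± 0.19, adjusted p = 1.67e-08). *Tbx21*, T-bet, the factor that directs Th1 cells, was at 43.7, 50.8 and 63.2 against 17.2, 12.8 and 14 CPM (1.84 ± 0.19, adjusted p = 2.32e-06). *Ccl5*, a chemokine of effector T and NK cells, was at 689, 843 and 885 against 67.3, 66 and 49.1 CPM (3.73 ± 0.18, adjusted p = 2.74e-09). None of the 3 overlapped between groups, as was so for 71.1% of all autosomal genes tested. The inflamed pools differed from each other by less than 2-fold. *Havcr2*, the inhibitory receptor TIM-3, went up by 4.96 ± 0.19 and *Il12rb2*, a chain of the IL-12 receptor, by 4.17 ± 0.22. The transferred Th1 cells had no Kaede, and the red gate was meant to leave them out. Whether any of this RNA came from them was not tested.

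Other lymphocyte programs rose as well. Regulatory T cell genes were higher in 11 of 14 cases and lower in 1 (median 1.58). *Klrg1* was at 3.80 ± 0.26, *Tnfrsf9* (4-1BB) at 3.17 ± 0.16 and *Il10* at 3.03 ± 0.26, while *Gpr83* fell (-2.88 ± 0.16). *Lrrc32* and *Izumo1r* were not called, and the list did not hold *Foxp3*. Some lists, here and in later paragraphs, shared members. *Klrg1* was also in the type 2 list, and *Gzmb* and *Nkg7* were in both the Th1 and the natural killer lists. Genes of gamma delta T cells and type 17 cells were higher in 17 of 20 and lower in 2 (median 1.96). *Trdc*, the constant region of the T cell receptor delta chain, was at 103, 97.4 and 127 CPM against 32.5, 37 and 39.9 CPM (1.58 ± 0.21, adjusted p = 2.25e-05). *Il17a*, which recruits neutrophils through other cells, was at 9.36, 3.23 and 5.9 against 0.454, 0.148 and 0.0989 CPM (4.64 ± 0.52, adjusted p = 4.49e-06), and *Il22* at 5.03, 1.75 and 1.79 against 0.0716, 0.0247 and 0.033 CPM (5.91 ± 0.61). Levels of both cytokines were low even in the inflamed pools and varied among them, replicate 1 being the highest and replicate 2 the lowest, as for the salivary RNA. The members that fell, *Blk* and *Ccr6*, are shared with B cells. Natural killer and cytotoxic genes rose in 12 of 15 and fell in none (median 1.502), among them *Gzma* (2.99 ± 0.26) and *Klrk1* (2.25 ± 0.16), which encodes NKG2D. Type 2 lymphoid genes rose in 8 of 12 and fell in 1, among them *Il1rl1*, the IL-33 receptor (33.9, 24.4 and 20.2 against 3.22, 3.36 and 4.05 CPM, 2.89 ± 0.22, adjusted p = 1.03e-07), and *Areg*, amphiregulin (38.5, 8.31 and 28.3 against 3.99, 2.37 and 3.13 CPM, 2.99 ± 0.46), whose order among the inflamed pools was that of the salivary RNA. In the germinal centre and follicular helper list 5 of 11 rose, with *Il21* at 5.75, 7.71 and 6.63 against 0.406, 0.469 and 0.494 CPM (3.87 ± 0.28) and *Icos* at 484, 318 and 291 against 63.8, 70.8 and 84.7 CPM (2.32 ± 0.23), and the 2 that fell were *Rgs13* (-2.47 ± 0.76) and *Neil1* (-1.22 ± 0.16).

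B cell genes and antibody genes went in opposite directions. Of 20 B cell identity genes 18 were lower and 2 higher, with a median of -3.94. *Cd79a*, a signaling chain of the B cell receptor, was at 51.7, 36.1 and 64.7 CPM against 1118, 886 and 725 CPM (-4.16 ± 0.24, adjusted p = 9.09e-09). *Fcer2a*, the IgE receptor CD23 of mature B cells, was at 17.3, 10.4 and 23.1 against 753, 660.4 and 577 CPM (-5.29 ± 0.25, adjusted p = 2.04e-09), and *Cr2*, the complement receptor CD21, fell as well (-4.62 ± 0.23). *Ighd*, the IgD heavy chain of naive B cells (chr12:113406604-113416324), was at 43.3, 35.7 and 58.4 against 1717, 1424 and 1168 CPM (-4.97 ± 0.22, adjusted p = 1.47e-09). The 2 members that rose were the antibody chains *Igkc*, the kappa light chain constant region (4025, 2709 and 6118 against 1602, 1355 and 1026 CPM, 1.69 ± 0.29, adjusted p = 0.000226), and *Ighm*, the IgM heavy chain (5007, 3439 and 5306 against 2649, 2265 and 1934 CPM, 1.01 ± 0.20, adjusted p = 0.000592). *Ighm* stood at the fold limit and was not called under 16 of the other settings, among them DESeq2 size factors (0.99).

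Of 14 plasma cell genes 12 rose and none fell (median 4.66). *Ighg2c*, the IgG2c heavy chain that interferon gamma favors in class switching, was at 882, 1020.2 and 2355 CPM in the inflamed pools and at 7.62, 5.97 and 9.33 CPM at steady state (7.54 ± 0.57, adjusted p = 1.12e-07). *Jchain*, which joins IgA and IgM into polymers, was at 409.7, 275 and 501 against 4.85, 2.79 and 6.62 CPM (6.39 ± 0.38, adjusted p = 1.24e-08), and *Ighg2b* and *Ighg3* rose by 6.12 ± 0.54 and 6.57 ± 0.57. Replicate 3 carried the most *Ighg2c* and *Ighg3*. Every inflamed pool lay above every steady-state pool, and the groups were apart in 71.1% of all autosomal genes tested. The antibody constant region genes are near copies of each other, so the division of reads among IgG subclasses is uncertain. *Igkc*, *Ighm* and *Jchain* were lowest in replicate 2, which also had the least salivary RNA, and highest in replicate 3, while *Ighg2c* was lowest in replicate 1. The part of gland RNA in the antibody genes was not tested.

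Macrophage and monocyte genes mostly rose, from low levels. Of 13 macrophage genes 10 were higher and 1 lower (median 3.03), with *C1qb*, a chain of complement C1q, at 21.2, 10.8 and 26.2 CPM against 1.17, 1.7 and 0.923 CPM (3.92 ± 0.54, adjusted p = 2.73e-05) and *Cd163*, a scavenger receptor, falling (-1.79 ± 0.35). Monocyte and inflammatory macrophage genes were higher in 8 of 13 and lower in none (median 2.63). *Lyz2*, lysozyme, was at 306, 215 and 391 against 46.6, 61.8 and 38.4 CPM (2.63 ± 0.31, adjusted p = 6.75e-06). *Nos2*, inducible nitric oxide synthase, was at 2.95, 2.9 and 1.5 against 0, 0.074 and 0.033 CPM (5.97 ± 0.59, adjusted p = 1.26e-06), and *Arg1*, which competes with it for arginine, at 8.44, 3.28 and 5.81 against 0.215, 0.197 and 0.33 CPM (4.57 ± 0.71). *Thbs1*, thrombospondin 1, followed the order of the salivary RNA (23.8, 3.94 and 14.1 against 0.501, 0.592 and 0.231 CPM, 4.93 ± 0.96), and with replicate 2 alone its call was lost (adjusted p = 0.0584).

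Neutrophil genes gave a different picture. *S100a8*, which neutrophils hold in large amounts, was at 3.81, 0.547 and 2.76 CPM against 3.82, 2.94 and 2.11 CPM and did not pass the test (-0.31 ± 0.52, adjusted p = 0.613). Of 15 neutrophil genes 4 were higher and 1 lower, beside 21.6% and 15.0% of all autosomal genes, and the list summed to 61.2 to 87.5 CPM against 22 to 33.2 CPM. With sex as a term 2 were higher and 2 lower, and with replicate 2 alone 2 and 3, and the median of 0.48 turned to -0.20 and -1.14. Those that rose furthest were *Il1r2*, the decoy receptor for IL-1, which is not restricted to neutrophils (43, 35.6 and 26.1 against 1.81, 1.58 and 1.38 CPM, 4.44 ± 0.34, adjusted p = 1.35e-07), and *Clec4d* (3.91 ± 0.63). Non-hematopoietic markers were low: *Krt14* had at most 2 reads a library, the keratinocyte list had 4 of 12 members tested and summed to 30.7 to 43.2 CPM against 47.2 to 57.8 CPM, and *Perp*, a desmosomal protein, followed the order of the salivary RNA (6.76, 2.73 and 5.9 against 0.167, 0.197 and 0.198 CPM, 4.76 ± 0.39). The stroma and endothelium list summed to 66 to 69.6 CPM against 264 to 276 CPM, mostly through *Pecam1*, which leukocytes carry as well (52.2, 62.8 and 65.2 against 273, 262 and 264 CPM, -2.15 ± 0.12). Of its 8 members 5 were called higher, but none with replicate 2 as the only skin migrated library. In the mast cell and basophil list 3 of 10 rose, beside 21.6% of all autosomal genes, with *Kit* at 2.40 ± 0.20. In the eosinophil list 6 of 8 rose, with *Ccr3* at 5.34, 4.26 and 9.97 against 0.43, 0.617 and 0.593 CPM (3.58 ± 0.34), and *Il5ra*, which B cells also express, fell (-4.37 ± 0.34). The number of eosinophil genes called higher dropped to 2 with sex as a term and to 3 with replicate 2 alone. None of 5 erythroid genes was called. Of 3 platelet genes 1 was called, *Pf4*, with 52 reads against 0, which is at least 33.3-fold higher when 3 reads are allowed for the steady-state group, and its call was lost with replicate 2 alone (adjusted p = 0.143).

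**Figure D3:**
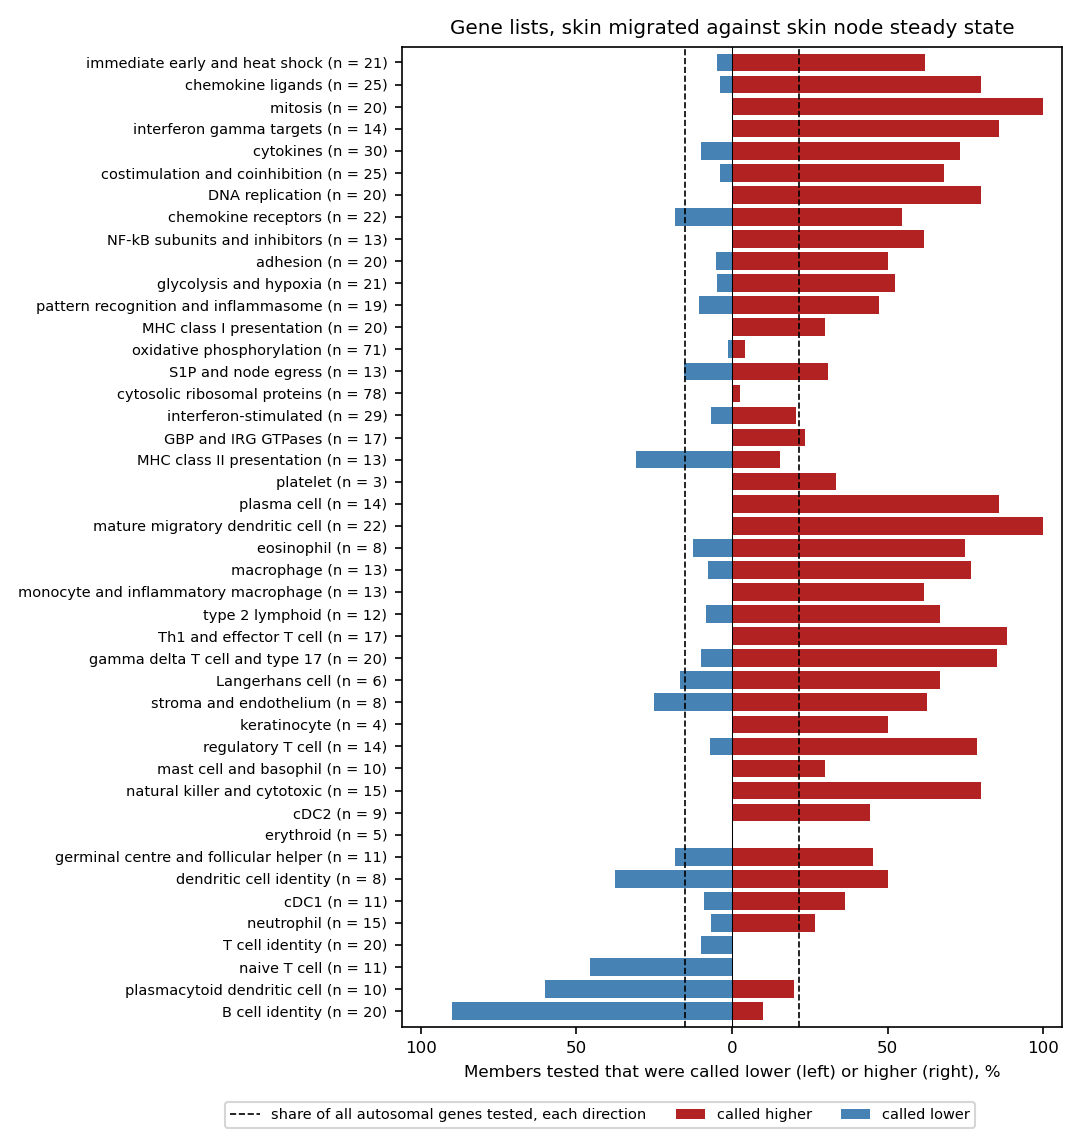
Share of the tested members of each gene list that was called higher (red, to the right) or lower (blue, to the left) in skin migrated against steady-state cells, in percent, with the number of members tested in brackets. Dashed lines mark the shares of all autosomal genes tested, 21.6% higher and 15.0% lower. The mitosis and mature migratory dendritic cell lists are higher throughout, and the B cell list is lower in 18 of 20 members.

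Most chemokine ligands rose. Of 25 ligands tested 20 rose and 1 fell (median 3.75), and the 32 listed summed to 2200.4 to 3009 CPM against 80.5 to 107 CPM. *Ccl17* and *Ccl22* were also in the mature dendritic cell list, and *Ccl5* was in the Th1 list. *Cxcl16*, the ligand of CXCR6, was at 558, 750.04 and 760.5 CPM in the inflamed pools and 2.6, 1.95 and 1.85 CPM at steady state (8.33 ± 0.36, adjusted p = 1.29e-09), with the overlap with *Zmynd15* given above. *Cxcl1*, a neutrophil attractant, had 428 reads against 2, a ratio of 412 with a 95% counting interval of 113 to 3410, and *Ccl24*, an eosinophil attractant, had 117 reads against 0, at least 75.0-fold higher. *Cxcl9*, which interferon gamma induces and which attracts CXCR3-bearing T cells, was at 10.8, 12.7 and 12.3 against 0.716, 0.888 and 0.89 CPM (3.84 ± 0.26, adjusted p = 4.19e-08). The ligand that fell was *Ccl25* (2.34, 2.13 and 2.85 against 6.02, 7.75 and 7.02 CPM, -1.50 ± 0.21, adjusted p = 3.2e-05), which binds CCR9.

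Of 22 chemokine receptors 12 rose and 4 fell (median 1.22). *Ccr2*, the receptor with which monocytes and effector T cells leave the blood, was at 233, 177 and 213 CPM against 20.9, 26.7 and 28 CPM (3.05 ± 0.20, adjusted p = 3.27e-08). *Ccr1*, a receptor of myeloid cells for inflammatory chemokines, was at 10.1, 8.69 and 10.6 against 1.58, 1.18 and 0.923 CPM (2.98 ± 0.25, adjusted p = 2.35e-07). *Ccrl2*, a receptor that binds chemerin without signaling, was at 37, 15.7 and 23.2 against 3.18, 3.21 and 2.44 CPM (3.10 ± 0.37). Those that fell were *Cxcr5*, which takes B cells to the follicle (27.4, 35 and 45.7 against 192, 161 and 132 CPM, -2.17 ± 0.18, adjusted p = 2.12e-07), *Ccr6* (-1.24 ± 0.16), *Ccr9* and *Ackr3*. *Ackr3*, a scavenging receptor, had 1 read in the 3 inflamed pools and 33 at steady state, a ratio of 17.2 in favor of steady state with a 95% counting interval of 2.87 to 698.

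Cytokine genes rose in 22 of 30 cases and fell in 3 (median 2.70). The 2 chains of IL-12 moved apart. *Il12b*, the p40 chain (chr11:44400063-44414033), was at 33, 22.5 and 35.2 CPM in the inflamed pools against 0.0716, 0.0247 and 0.0989 CPM (8.84 ± 0.64, adjusted p = 7.22e-08). *Il12a*, the p35 chain (chr3:68690644-68698547), was at 0.305, 0.0547 and 0.0968 CPM against 12.5, 11.6 and 7.98 CPM (-6.09 ± 0.43, adjusted p = 5.68e-08). *Il23a*, the partner of p40 in IL-23, was near 0 in both groups (0.102, 0.328 and 0.0968 and 0.0716, 0.123 and 0.0659 CPM) and is named here after its values were seen. *Il1rn*, the natural antagonist of IL-1, was at 41.4, 27 and 55.5 against 0.597, 0.444 and 0.231 CPM (6.55 ± 0.58, adjusted p = 4.81e-07), *Il15*, which sustains memory T and NK cells, rose by 5.98 ± 0.36, and *Il6* was at 3.15, 1.59 and 2.47 against 0.0239, 0.0493 and 0.033 CPM (5.95 ± 0.73). *Lta*, lymphotoxin alpha, was at 14.1, 15.7 and 13.2 against 39.5, 38.7 and 35 CPM (-1.40 ± 0.15), and *Il16*, which attracts CD4-bearing cells, also fell (-1.07 ± 0.15, and -0.89 with replicate 2 alone).

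**Figure D4:**
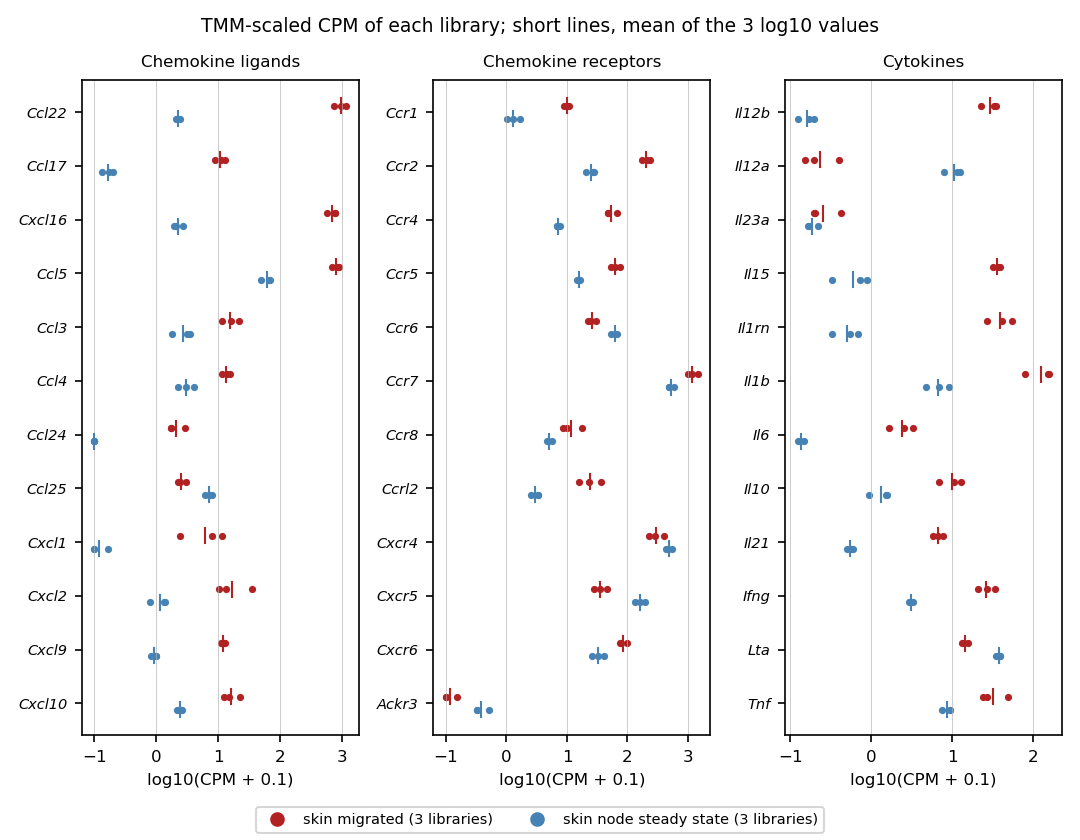
Level of 12 chemokine ligands, 12 receptors and 12 cytokines in each library as log10(CPM + 0.1), with red points for the 3 skin migrated libraries, blue points for the 3 steady-state libraries and a short line at the mean of the 3 log values. Ccl22, Cxcl16 and Il12b lie to the right in red, while Il12a, Cxcr5 and Lta lie to the right in blue.

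Molecules of contact between T cells and antigen-presenting cells mostly rose. In the costimulation and coinhibition list 17 of 25 rose and 1 fell (median 2.21). Many of those that rose were also members of lists above. *Cd80*, *Cd86*, *Cd40*, *Cd274*, *Pdcd1lg2* and *Cd200* were in the mature dendritic cell list, and *Ctla4*, *Tnfrsf4* and *Tnfrsf9* in the regulatory T cell list. *Pdcd1* and *Icos* were in the germinal centre and follicular helper list, and *Havcr2* was in the Th1 list. *Cd80*, a ligand of CD28 and CTLA-4, was at 37, 42.8 and 44.7 CPM against 0.74, 0.937 and 0.923 CPM (5.58 ± 0.33, adjusted p = 1.12e-08). *Tnfsf4*, the OX40 ligand, was at 13.3, 9.68 and 16.1 against 0.0955, 0.345 and 0.198 CPM (5.91 ± 0.49, adjusted p = 2.64e-07). *Cd70*, the ligand of CD27, had 118 reads against 1, a ratio of 227 with a 95% counting interval of 40.0 to 9040. In the adhesion list 10 of 20 rose and 1 fell, with *F11r*, the junctional adhesion molecule JAM-A, at 65.2, 62.7 and 88.8 against 0.31, 0.37 and 0.165 CPM (7.94 ± 0.41, adjusted p = 3.9e-09), *Vcam1* at 29.8, 35.5 and 39 against 0.669, 0.987 and 0.89 CPM (5.36 ± 0.36) and *Icam1* at 371, 432 and 444 against 52.6, 52.9 and 52.1 CPM (2.98 ± 0.18). NF-kB subunits and inhibitors rose in 8 of 13 and fell in none, led by *Relb*, which dendritic cell maturation needs (489.8, 667 and 611 against 71.4, 63.3 and 57.2 CPM, 3.20 ± 0.22, adjusted p = 4.93e-08). *Relb* was also in the mature dendritic cell list. Of 19 pattern recognition genes 9 rose, led by the lectins *Clec4n* (Dectin-2, 5.64 ± 0.50) and *Clec7a* (Dectin-1, 95.8, 52.5 and 81.4 against 3.34, 3.18 and 2.34 CPM, 4.68 ± 0.38), and the 2 that fell were *Tlr4* (-1.66 ± 0.28) and *Tlr1* (-1.06 ± 0.09).

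Interferon programs did not move as one. Genes that mostly answer to interferon gamma rose in 12 of 14 cases and fell in none, with a median of 2.88. *Batf2*, a transcription factor of activated macrophages, was at 3.15, 4.43 and 4.94 CPM against 0.0239, 0.0493 and 0.132 CPM (5.97 ± 0.51, adjusted p = 3.56e-07), and *Ido1*, which degrades tryptophan, at 1.73, 1.86 and 1.98 against 0.0716, 0.0493 and 0 CPM (5.30 ± 0.62). The GBP and IRG GTPases, which attack vacuoles that hold microbes, rose in 4 of 17, close to the background share of 21.6%. Their median was -0.18. *Gbp2* was at 359.5, 499 and 463 against 56.6, 62 and 68 CPM (2.82 ± 0.18, adjusted p = 2.15e-08) and *Gbp5* at 197, 286 and 268 against 40.02, 41.9 and 43.1 CPM (2.59 ± 0.23, adjusted p = 4.28e-07), the others being *Gbp2b* and *Gbp3*. These genes are near copies, so reads may be shared among them. Genes of the type I response rose in 6 of 29, close to the background share, and fell in 2 (median -0.12), with *Isg15* at 36.5, 44.9 and 53.5 against 7.14, 7.92 and 8.17 CPM (2.54 ± 0.20) and *Mx1* at 2.10 ± 0.22, but *Oas2* at 13.5, 13.2 and 10.4 against 35.5, 46.9 and 32.3 CPM (-1.63 ± 0.19).

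The promoters of these lists were searched for the 2 motifs through which interferons act on genes. In the 250 bases before the start, the core of the interferon-stimulated response element, GAAANNGAA on either strand, was found in 6.41% of the 11159 tested genes with a promoter in RefSeq (GRCm38.p6), in 6.85% of the genes called higher and in 6.53% of those called lower. It was found in 6 of 9 interferon gamma target promoters, 10 of 10 GBP and IRG promoters and 11 of 20 of the interferon-stimulated list. The core of the gamma-activated site, TTCNNNGAA, was found in 669 of the 11159, in 5.85% of higher and 6.29% of lower genes, and in 1 of the 9 interferon gamma target, 6 of the 10 GBP and IRG and 4 of the 20 interferon-stimulated promoters. Matches to the 2 cores may share bases. The promoter of *Igtp*, an IRG GTPase that did not pass the test (102, 104 and 87.2 against 99.6, 114 and 119 CPM, -0.18 ± 0.12) and was picked after its values were seen, held both cores, as did that of *Gbp5*, which rose. The promoters of 3 genes that rose and of *Igtp* are shown from 250 bases before the start to the base before the start, 5′ to 3′, with matches to either core in capitals, in the order *Cxcl9* (chr5:92328080-92328329, minus strand), *Gbp2* (chr3:142620413-142620662, plus strand), *Gbp5* (chr3:142496684-142496933, plus strand) and *Igtp* (chr11:58199306-58199555, plus strand).
Cxcl9: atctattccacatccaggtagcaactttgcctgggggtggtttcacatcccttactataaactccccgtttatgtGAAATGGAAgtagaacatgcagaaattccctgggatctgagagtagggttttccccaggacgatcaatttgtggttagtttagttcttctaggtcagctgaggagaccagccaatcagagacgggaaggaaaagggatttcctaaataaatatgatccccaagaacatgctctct
Gbp2: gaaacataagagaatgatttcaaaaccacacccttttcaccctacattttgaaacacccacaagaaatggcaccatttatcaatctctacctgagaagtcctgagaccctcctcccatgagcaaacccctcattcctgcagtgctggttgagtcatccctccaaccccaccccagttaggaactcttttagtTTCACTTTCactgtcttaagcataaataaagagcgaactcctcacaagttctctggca
Gbp5: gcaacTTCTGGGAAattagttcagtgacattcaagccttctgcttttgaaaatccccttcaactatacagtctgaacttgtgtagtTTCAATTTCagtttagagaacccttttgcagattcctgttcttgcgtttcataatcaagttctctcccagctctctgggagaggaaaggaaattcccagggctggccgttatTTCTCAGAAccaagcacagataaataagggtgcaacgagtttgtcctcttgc
Igtp: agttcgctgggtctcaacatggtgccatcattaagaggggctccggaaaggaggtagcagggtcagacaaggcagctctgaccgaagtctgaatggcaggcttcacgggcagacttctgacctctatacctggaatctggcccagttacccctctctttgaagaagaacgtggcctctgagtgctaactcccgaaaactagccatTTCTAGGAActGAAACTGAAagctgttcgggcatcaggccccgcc
A match is a description of these letters and not a binding site, and no match says only that the letters are not in this window. *Cxcl9* and *Gbp2* had 1 match to the first core each and none to the second, *Gbp5* had 1 and 2, and *Igtp* 1 and 1.

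In the MHC class I list 6 of 20 rose and none fell (median 0.70), beside 21.6% and 15.0% of all autosomal genes. Those that rose included *B2m*, the light chain of class I molecules (4954, 5508 and 5776 against 2304, 2247 and 1962 CPM, 1.32 ± 0.14, adjusted p = 2.2e-06), and *Psme2*, a proteasome activator (1.83 ± 0.17). In the class II list 2 of 13 rose and 4 fell (median -0.61), and the difference between the lists was not tested. *Ifi30*, a thiol reductase of the antigen-loading compartment, rose from 112, 93.2 and 78.1 CPM to 596, 743 and 844 CPM (2.95 ± 0.22, adjusted p = 9.61e-08). *H2-Ob*, a chain of H2-O, which restrains peptide loading in B cells, fell from 563, 513 and 453 CPM to 28.7, 26.7 and 39.97 CPM (-4.00 ± 0.18, adjusted p = 1.54e-09). *March1*, a ubiquitin ligase that removes class II molecules and CD86 from the surface of resting cells, fell from 68.8, 79.7 and 80.8 CPM to 10.4, 6.45 and 10.4 CPM (-3.07 ± 0.17, adjusted p = 7.56e-09). *H2-Oa* and *H2-DMb2* completed the fall (-1.97 and -1.56).

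Genes of cell division rose. All 20 mitosis genes of the list were called higher (median 3.60), and their sum was 926 to 1615 CPM against 105 to 134 CPM. *Ccna2*, cyclin A2, was at 97.8, 90.2 and 51.2 CPM against 3.7, 3.18 and 4.09 CPM (4.45 ± 0.25, adjusted p = 9.26e-09), and *Birc5*, survivin, at 53, 49.7 and 28.7 against 3.01, 2.74 and 2.6 CPM (3.97 ± 0.26). Replicate 3 was the lowest of the inflamed pools for these genes and remained far above the steady-state pools. Of 20 DNA replication genes 16 rose and none fell (median 1.65), with *Rrm2*, which supplies deoxynucleotides, at 139.5, 127 and 84.7 against 7.21, 5.75 and 7.55 CPM (4.10 ± 0.21, adjusted p = 4.69e-09). Glycolysis and hypoxia genes rose in 11 of 21 and fell in 1 (median 1.03), led by *Pfkfb3*, which speeds glycolysis (636, 833 and 842 against 62.1, 57.5 and 57.4 CPM, 3.71 ± 0.26, adjusted p = 5.07e-08). By contrast, 3 of 71 nuclear genes of oxidative phosphorylation rose and 1 fell (median 0.52), and of 78 ribosomal protein genes 2 rose and none fell (median -0.09).

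Genes that respond within minutes to handling and stress also moved with the groups. In the immediate early and heat shock list 13 of 21 rose and 1 fell (median 1.16), and the list summed to 8439.6 to 10067 CPM against 4096 to 5145 CPM. *Hspa1a*, an inducible HSP70, was at 17.5, 13.8 and 12.4 CPM against 0.119, 0.074 and 0 CPM (7.63 ± 0.66, adjusted p = 3.85e-07), and *Atf3*, a stress-induced transcription factor, at 64.5, 26.4 and 33.3 against 2.77, 2.59 and 1.98 CPM (4.07 ± 0.38, adjusted p = 7.11e-07). *Egr3*, an immediate early gene that antigen receptors induce, fell (13.9, 9.62 and 10.4 against 55.9, 46.2 and 37.4 CPM, -2.04 ± 0.18). *Hspa1a* and *Hspa1b* are near copies of each other. Cytokine, chemokine and NF-kB genes above include many that the same stimuli induce, and the part of such a response in their change was not tested.

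The joint-draining node is the only other node with an inflamed and a steady-state group, and its 6 libraries are not among those above. The steady-state groups are not labeled alike, since the joint samples are titled with PBS and KG and the skin samples Naive, and the test of the difference rests on both. The difference between the 2 changes was tested as an interaction, and it passed an adjusted p under 0.05 with a difference of over 2-fold in 1026 of 16532 autosomal genes (6.21%), with the skin change above the joint change in 637 (3.85%) and below it in 389 (2.35%). Each joint group held 1 library with male reads, whereas the skin groups were of opposite sex, and 613 genes were called with sex as a term and 553 with replicate 2 as the only skin migrated library. For mature dendritic cell genes the median was 4.60 in the skin and 3.19 in the joint comparison, and 4 of 22 members differed. *Fscn1* changed by 9.30 ± 0.40 and 9.80 ± 0.41 (difference -0.51 ± 0.42, adjusted p = 0.467), and *Ccl22* by 8.80 ± 0.41 and 10.08 ± 0.45 (difference -1.27 ± 0.52, adjusted p = 0.133).

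Myeloid genes differed between the nodes in many members. Of 15 neutrophil genes 13 had a skin change above the joint change (medians 0.48 and -3.62). The steady-state groups themselves were unlike for these genes, with a summed level of 22 to 33.2 CPM in the skin-draining and 757 to 1424 CPM in the joint-draining node. For monocyte and inflammatory macrophage genes 8 of 13 differed in the same direction (medians 2.63 and -1.08). *Ifitm1*, an interferon-induced membrane protein, was at 47.7, 33.7 and 50.5 CPM and 0.74, 0.839 and 0.593 CPM in the skin-draining node and at 20.9, 33.3 and 37.4 CPM and 22.6, 32 and 37 CPM in the joint-draining node, inflamed and steady state in turn (difference 5.90 ± 0.37, adjusted p = 8.15e-06). Only the steady-state pools of the skin-draining node were low. *Ccr1* changed by 2.98 ± 0.25 and -1.11 ± 0.21 (difference 4.09 ± 0.33, adjusted p = 2.15e-05). *Fcgr3*, an activating Fc receptor for IgG, changed by 2.77 ± 0.18 and -0.85 ± 0.17 (difference 3.62 ± 0.25, adjusted p = 8.15e-06).

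B cell genes fell further in the skin-draining comparison. Of 20 members 14 had the skin change below the joint change (medians -3.94 and -2.22). *Fcer2a*, CD23, fell to 17.3, 10.4 and 23.1 CPM there and was at 132, 97.9 and 114 CPM against 611, 633 and 606 CPM in the joint-draining node (difference -2.86 ± 0.30, adjusted p = 0.000108). *Siglech* took opposite directions, -2.66 ± 0.21 in the skin and 1.31 ± 0.19 in the joint comparison (difference -3.97 ± 0.29, adjusted p = 1.22e-05). T cell identity, naive T cell, regulatory T cell and mitosis lists had 0, 0, 0 and 2 members with a skin change above the joint change and none below.

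**Figure D5:**
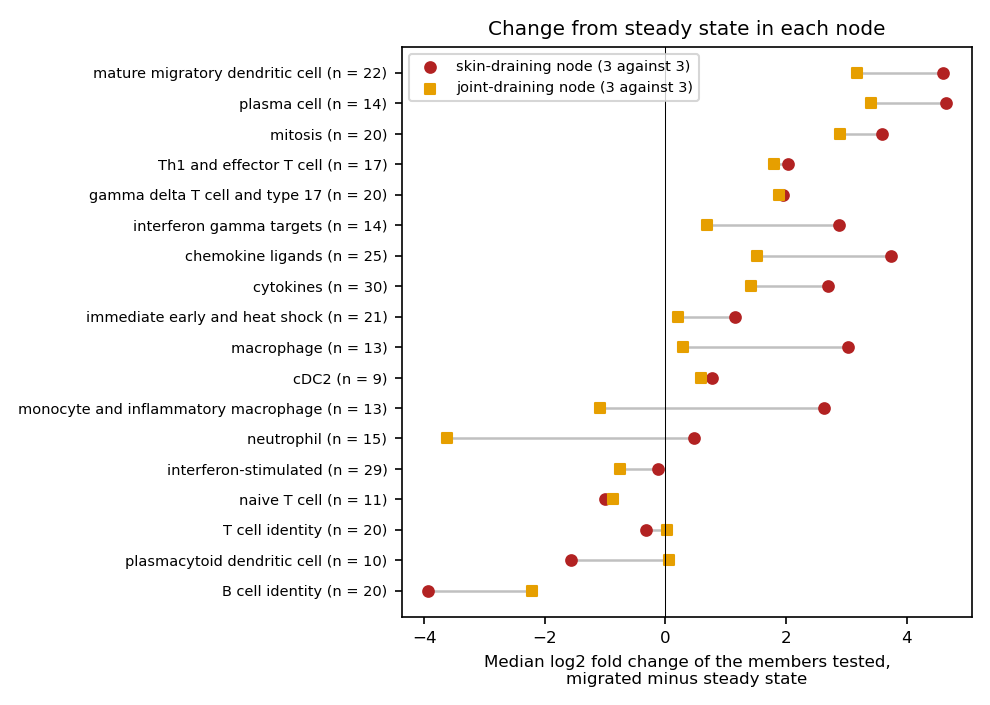
Median log2 fold change (migrated minus steady state, horizontal axis) of the tested members of 18 gene lists in the skin-draining node (red circles, 3 against 3 libraries) and in the joint-draining node (orange squares, 3 against 3 libraries), with the number of members in brackets. The pairs for the neutrophil and monocyte lists lie far apart on opposite sides of 0, and those for the type 17, naive T cell and Th1 lists lie close together.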

How the data were processed

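RNA of sorted leukocytes was sequenced as paired reads on a HiSeq 2000. According to the methods and the submitters' processing notes, the authors trimmed reads with Trim-Galore, aligned them with TopHat2 to mm10 with a version 87 transcriptome and counted reads per gene with HTSeq at default settings. The deposited values are whole-number counts per Ensembl gene. The handling of strand is given only as that default, so overlapping genes on opposite strands may not be separable. Reads outside genes and other summary rows (no more than 0.441% of reads here for the former) were left out of library sizes.

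Counts were scaled with TMM factors, filtered with edgeR's filterByExpr over the 12 node libraries and tested with edgeR 4.0.16 (glmQLFit and glmQLFTest) in R 4.3.3, in 1 fit with a coefficient per group, and the skin migrated against skin node steady state contrast and its difference from the joint contrast were taken from it. Benjamini-Hochberg adjustment ran over all genes of all chromosomes, and autosomal genes were reported, since the groups differed in sex. Calls needed an adjusted p under 0.05 and an absolute log2 fold change over 1. Named genes were, for each direction, the 12 non-overlapping genes of lowest adjusted p, up to 4 called members of each list with the largest change, a set of defining genes, and the 6 leading genes of the difference between nodes. Genes named for other reasons are marked as such or belong to the added salivary list, and a few genes that the rule gives are not reported here. Members and lists were chosen with earlier results of these data known. The labels name separate samples, and p-values measure the spread between pools. Intervals and floors cover counting error only. The test was first tried on simulated counts. Alternatives added after seeing the data were sex as a term, skin migrated replicate 2 alone, library totals and upper-quartile scaling. Promoters came from a RefSeq table of GRCm38.p6.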

Additional observations from a re-analysis of the deposited data

Results flagged for a closer look

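No group had more than 3 libraries, so outlying samples were not looked for. The change from steady state differed between the skin-draining and the joint-draining node in 1026 autosomal genes by the interaction test, 637 of them with the skin change above the joint change. The genes below were those with the smallest adjusted p of that test in each direction, and each value is the skin change minus the joint change on the log2 scale.

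On the upper side the differences were 5.90 for *Ifitm1* (skin 5.90 ± 0.30, joint -0.00089 ± 0.22), 3.55 for *Mcemp1*, a membrane protein of myeloid cells (skin 4.39 ± 0.19, joint 0.84 ± 0.16), 3.62 for *Fcgr3*, 4.13 for *Ifitm2* (skin 5.17 ± 0.26, joint 1.04 ± 0.21) and 4.09 for *Ccr1*. For *F10*, coagulation factor X, the difference was 6.93, with 7.27, 6.4 and 7.89 CPM in skin migrated and 0.119, 0.247 and 0.0989 CPM in skin node steady state, and 1.01, 2.44 and 2.9 and 5.93, 5.74 and 5.81 CPM in the joint-draining groups. On the lower side they were -3.97 for *Siglech*, -2.39 for *Ffar1* (skin -4.70 ± 0.17, joint -2.31 ± 0.14), -1.42 for *Kmo* (skin -2.87 ± 0.11, joint -1.44 ± 0.10), -1.48 for *Mirt1* (skin -1.88 ± 0.11, joint -0.40 ± 0.11), -2.86 for *Fcer2a* and -2.47 for *Ighd* (skin -4.97 ± 0.22, joint -2.50 ± 0.19). Male and female reads separated the skin groups and not the joint groups. So did depth and the share of reads outside genes. Salivary RNA above 0.01% of reads was found in 1 group only, skin migrated. The part of these features in the difference between the nodes cannot be told apart by the design. Each of these 12 genes kept its direction and its call with sex as a term and with replicate 2 as the only skin migrated library, and *Mirt1* lost its call with all 18 libraries in the fit.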

How the results depend on the processing

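The 6043 calls became 6050 with DESeq2 size factors, 6858 with no filter on low counts, 5780 with a filter within groups, 5290 with the 6 skin-draining libraries alone, 6111 with all 18 libraries, 5359 with counts thinned to the smallest library, 6487 with DESeq2's Wald test, 4168 at an adjusted p under 0.001 and 10769 with no limit on the fold change. With no limit 5718 genes were higher and 5051 lower, and at an adjusted p under 0.001 the number of lower genes was 1400. Leaving out each library in turn gave 5931 to 6142 calls, 3409 to 3592 higher and 2466 to 2664 lower. Library totals gave 6281 and upper-quartile scaling 6231 calls, with medians moved by -0.17 and -0.14. Sex as a term gave 5087 calls (3188 higher, 1899 lower) and replicate 2 as the only skin migrated library 5427 (3259 higher, 2168 lower).

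The number of genes that differed between the nodes, 1026, depended more on these choices. It was 147 at an adjusted p under 0.001, 1686 with no limit on the difference, 652 with all 18 libraries, 613 with sex as a term, 553 with skin migrated replicate 2 alone and 1259 with DESeq2's Wald test, and leaving out 1 library gave 683 (without skin node steady state replicate 2) to 1217 (without joint migrated replicate 3).

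A replicate block gave 5768 calls, 5726 of them shared with the fit without it, and 758 genes that differed between the nodes. Deviations of same-numbered samples correlated at -0.11, 0.01 and -0.01, so the numbers were not taken to pair the samples.

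The direction of 5 genes turned under some setting, and the cause was not tested. *Hbb-bs* (0.21) went to -0.23 with the replicate block, -1.90 to 0.64 when 1 library was left out (-1.90 without skin migrated replicate 1, -0.04 without skin node steady state replicate 1), -1.66 with sex as a term and -1.76 with replicate 2 alone. *Cd4* (0.06) went to -0.12 with library totals, -0.086 with the upper quartile, -0.10 to 0.13 when 1 library was left out (lowest without skin migrated replicate 1, highest without skin migrated replicate 3) and -0.10 with sex as a term. *Cd69* (-0.08) went to -0.34 to 0.052 when 1 library was left out (0.052 without skin migrated replicate 2) and 0.17 with sex as a term. *S100a8* (-0.31) went to -0.85 to 0.091 when 1 library was left out (0.091 without skin migrated replicate 2), and *Alox15* (4.29) to -6.41 with replicate 2 alone. Depth limits genes of a few reads, such as *Cd207* and *Il23a*, for which a difference was not detectable.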

Other observations

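*Il4*, *Il13*, *Ccl17*, *Ccr4* and *Ccr8* were higher in the inflamed pools. The genes of these paragraphs were picked after their values were seen. *Il4* stood at 0.559, 0.547 and 0.871 CPM in skin migrated replicates 1, 2 and 3 and at 0.167, 0.173 and 0 CPM at steady state (2.42 ± 0.63), and *Il13* at 2.75, 1.53 and 0.581 against 0.382, 0.148 and 0.198 CPM (2.70 ± 0.60). *Il5*, the other interleukin of the type 2 list, did not pass the test (0.203, 0.601 and 0.145 against 0.0716, 0.0987 and 0.132 CPM, 1.62 ± 0.68, adjusted p = 0.05003 by edgeR's quasi-likelihood test). *Ccl17*, which shares the receptor CCR4 with *Ccl22*, was at 8.69, 10.8 and 12.7 against 0.0955, 0.074 and 0.033 CPM (7.18 ± 0.47), and *Ccr4* itself at 66.6, 47.9 and 46.8 against 6.69, 6.71 and 7.68 CPM (2.94 ± 0.22). *Ccr8*, carried by skin-homing and regulatory T cells, was at 17.4, 10.00 and 8.47 against 5.56, 4.84 and 4.61 CPM (1.25 ± 0.23). No inflamed pool fell among the steady-state pools for the 5 genes that passed. The groups were likewise apart in 71.1% of all autosomal genes tested. Levels of *Il4* were low in every library.

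*Il1b*, the inflammatory cytokine IL-1 beta, was at 154, 79.2 and 159 CPM against 9.03, 6.81 and 4.61 CPM (4.25 ± 0.51), and *Tnf* at 49.2, 26.7 and 23.9 against 9.29, 9.45 and 7.48 CPM (1.93 ± 0.25). Of 6 Langerhans cell genes tested 4 rose and 1 fell (median 1.80), although langerin itself was near 0. With replicate 2 as the only skin migrated library the median was 1.23. *Epcam*, among those that rose, followed the order of the salivary RNA, as given above. Apart from *Il5*, the adjusted p-values of the genes in these paragraphs, from edgeR's quasi-likelihood test, were under 0.05.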
